A study of Homo sapiens with 12 samples.

Results

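Extracellular vesicles (EVs) released by RAB27A knockdown cells were compared with EVs released by control cells, miRNA by miRNA. The members were the 4 EV libraries of these 2 lines, 2 per line, of 12 libraries in the series, taken by their column names in a table of counts for 2588 mature human miRNAs. Both lines derive from MDA-MB-231, a human triple-negative breast cancer line with a mesenchymal phenotype. The knockdown line carried a lentiviral short hairpin RNA against RAB27A, and the control line carried the empty vector. The knockdown was 1 line made with 1 hairpin, so its effect and other traits of that line cannot be told apart. All cells were grown with 10% fetal bovine serum and then kept for 24 h without serum, in 1% bovine serum albumin, and EVs were pelleted from this medium by ultracentrifugation. The other libraries come from the cells of both lines, and from cells and EVs of an MDA-MB-231 line in which CRISPR-Cas9 and paired guide RNAs were used to knock out miR-122. Whether replicates 1 and 2 were separate cultures is not said, so the spread behind each p-value, which is that between these samples, may be technical. In a bulk library a change in how many vesicles of a kind were collected and a change in the RNA of each vesicle cannot be told apart.

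The GTPase RAB27A helps multivesicular bodies to dock at the cell surface, the step before these bodies fuse with the plasma membrane and release their inner vesicles as exosomes. Vesicles that bud directly from the plasma membrane do not depend on that step, and a pellet from ultracentrifugation holds both kinds along with other particles. A miRNA is a short RNA that guides Argonaute proteins to target mRNAs, mainly through its seed, bases 2 to 8 from its 5′ end, so miRNAs with a shared seed share most of their predicted targets. RAB27A mRNA is not measured by small RNA libraries, so the knockdown itself could not be checked here.

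The miRNAs on which the results turn are printed below 5′ to 3′, from RefSeq (GRCh38.p14), with the seed in capitals. The first set holds the leading miRNAs of the EVs, miR-100-5p and miR-21-5p, and examples of the miRNAs that rose or fell most.
miR-100-5p: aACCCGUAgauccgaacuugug
miR-21-5p: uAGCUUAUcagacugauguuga
miR-146a-5p: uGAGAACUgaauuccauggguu
miR-95-3p: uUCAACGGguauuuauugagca
miR-135b-5p: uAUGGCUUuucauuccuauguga
miR-125b-2-3p: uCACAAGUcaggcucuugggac
miR-501-3p: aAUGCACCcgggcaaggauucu
miR-199a-3p: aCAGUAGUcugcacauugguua
miR-143-3p: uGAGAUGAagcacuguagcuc
miR-223-3p: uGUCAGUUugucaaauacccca
miR-34a-5p: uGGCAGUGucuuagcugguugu

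The second set holds pairs and groups with a common seed whose members changed in opposite directions. In each group the member that rose stands first, followed by members that fell.
miR-99a-5p: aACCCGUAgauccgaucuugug
miR-99b-5p: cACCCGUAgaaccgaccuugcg
let-7c-5p: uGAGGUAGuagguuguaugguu
let-7a-5p: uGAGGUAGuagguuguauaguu
let-7b-5p: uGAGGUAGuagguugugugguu
miR-20b-5p: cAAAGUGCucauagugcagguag
miR-93-5p: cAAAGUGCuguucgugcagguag
miR-363-3p: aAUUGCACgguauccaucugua
miR-25-3p: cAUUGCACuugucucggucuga
miR-92b-3p: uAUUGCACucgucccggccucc
miR-23a-3p: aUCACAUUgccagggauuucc
miR-23b-3p: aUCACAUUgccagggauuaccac
miR-30a-3p: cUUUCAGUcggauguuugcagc
miR-30e-3p: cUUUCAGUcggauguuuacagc

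The knockdown EV libraries were shallow. They held 164656 and 170366 counts against 2387336 and 2596391 in the control EV libraries, so a single count was worth 6.07 and 5.87 CPM (counts per 1000000 counts of the library) in knockdown EVs and 0.419 and 0.385 CPM in control EVs. They detected 485 and 491 miRNAs, and the control EV libraries 956 and 977. Drawn down to the shallowest depth, the control EV libraries were expected to show 493 and 491 miRNAs. Of 1194 miRNAs with a count in any of the 4 libraries, 590 were seen in control EVs alone and 53 in knockdown EVs alone. Replicates correlated at 0.994 in control EVs and 0.936 in knockdown EVs, over 488 miRNAs on the log2 scale. A miRNA with no count in both knockdown libraries may still have been present at up to 8.96 CPM, the level of 3 counts in their summed total, and folds against such zeros are given as bounds from that level. Among the markers of the line, miR-221-3p, miR-21-5p and miR-100-5p were the 3 most abundant miRNAs of both groups. The epithelial miR-200c-3p stood at 45.7 and 35.8 CPM in control EVs and 48.6 and 47.0 CPM in knockdown EVs. Not every epithelial miRNA held its level, since miR-200b-3p of the same family rose, as given below. The entries of that family summed to 205 and 182 CPM in control EVs and 425 and 423 CPM in knockdown EVs.

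The comparison asked which miRNAs change in released vesicles when RAB27A is reduced. Of 488 miRNAs tested, 226 passed an adjusted p of 0.05 in edgeR's quasi-likelihood test (46.3%). In the knockdown EVs 92 were higher (18.9%) and 134 were lower (27.5%). Of these, 37 and 77 had a fitted change of at least 4-fold. Among the 226, 39 had no count in knockdown EVs. Their fitted folds are no bounds, so some of the 77 may differ by less than 4-fold. The CPM of the 2 groups did not overlap for 381 of the 488 (78.1%). The median log2 fold change over all tested miRNAs was -0.29, and -0.11 with the 68 miRNAs that had no count in knockdown EVs set to their bounds, or to 0 where the control level was also under the limit. When the trend of the ratio with the GC content of the miRNA was removed, 111 were higher and 85 lower of 428 with a sequence. The balance of directions thus depended on that choice. The fitted trend was not centred, so removing it also rescaled each library. The median log2 fold change over these 428 was 0.08, or 0.37 above that of the main fit. Calls and signs that changed in this fit, named below, cannot be credited to GC content alone. Scaling to total counts, without TMM factors, moved the median log2 fold change by 0.12 upwards and gave 103 higher and 126 lower.

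**Figure D1:**
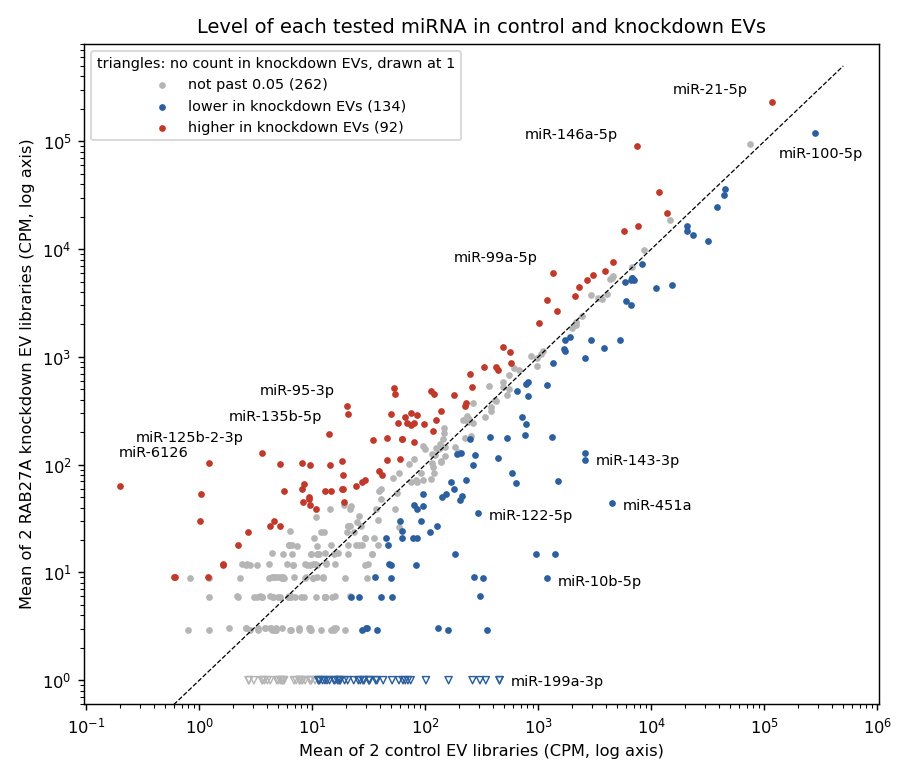
Mean level of each of the 488 tested miRNAs in control EVs (x axis, CPM, log scale) and RAB27A knockdown EVs (y axis, CPM, log scale), each a mean of 2 libraries; colours mark the 92 higher, the 134 lower and the 262 not past 0.05, triangles mark miRNAs with no count in knockdown EVs, and the dashed line marks equal levels. miR-21-5p lies above the line and miR-100-5p below it, miR-146a-5p lies far above it, and miR-451a and miR-143-3p lie far below it.

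The most abundant miRNAs kept their places in part. miR-100-5p, a member of the miR-99 family and the most abundant miRNA of the line, held 27.7% and 29% of the counts in control EVs and 11.1% and 13% in knockdown EVs. It moved from rank 1 to rank 2, and its log2 fold change was -1.35 (SE 0.09, adjusted p = 1.2e-07 by edgeR). miR-21-5p, an oncogenic miRNA abundant in many tumours, went the other way, from 12.3% and 11.3% to 23.9% and 22.9% (0.87, SE 0.09, adjusted p = 7.05e-06 by edgeR), and took rank 1. miR-221-3p, which targets the cell cycle inhibitor CDKN1B, held rank 3 in both groups with 7.44% and 7.63% against 9.61% and 9.45% and did not pass (0.22, adjusted p = 0.0631 by edgeR). Of the 10 most abundant miRNAs of each group 6 were shared. miR-146a-5p entered from rank 19 at rank 4. miR-30a-5p, which has the autophagy gene BECN1 among its targets, went from 1.12% and 1.20% to 3.53% and 3.28%, rank 14 to rank 6. miR-27b-3p fell out, from 3.17% and 3.24% to 1.17% and 1.20%, and so did let-7a-5p and let-7g-5p. The 10 most abundant together held 70.1% and 70.0% of the counts in control EVs and 71.1% and 70.2% in knockdown EVs.

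Among the 10 most abundant miRNAs of knockdown EVs, miR-146a-5p rose by the largest fold. Its gene lies at chr5:160485352-160485450 (GRCh38, plus strand), in an exon of the long noncoding RNA MIR3142HG, and NF-kappaB induces it to restrain IRAK1 and TRAF6 in innate immune signalling. Its level was 7567 and 7272 CPM in control EVs and 98478 and 82064 CPM in knockdown EVs, a log2 fold change of 3.49 (SE 0.12) and adjusted p = 5.67e-10 by edgeR. Its other arm, miR-146a-3p, rose from 18.4 and 18.5 CPM to 103 and 112 CPM (2.42). The third miRNA of that list, miR-155-5p, which NF-kappaB also induces, went the other way: it had 171 and 178 counts in control EVs and none in the knockdown, at least 7.82-fold lower. The 2 arms that rose and miR-155-5p that fell made 3 of the 4 tested entries of that list. The remaining entry, miR-146b-5p, shares the seed of miR-146a-5p and did not pass.

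Several further miRNAs rose from a low level in control EVs. miR-95-3p rose from 22.6 and 17.7 CPM to 352 CPM in each knockdown library, 16.1-fold (adjusted p = 5.42e-08 by edgeR). miR-135b-5p, an intronic miRNA of LEMD1 on chromosome 1 that targets APC, rose from 19.7 and 21.6 CPM to 255 and 340 CPM, 13.3-fold (adjusted p = 7.11e-08 by edgeR). Its 3p arm had 4 and 1 counts against 10 and 8 and passed as well. With so few counts in control EVs, that arm passed the filter on low counts without them and could hardly have come out lower. miR-1301-3p, within DNMT3A on chromosome 2, stood at 7.12 and 11.9 CPM against 128 and 70.4 CPM. The rule that named these miRNAs required that the libraries of the 2 groups do not overlap, so their separation is part of the choice.

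**Figure D2:**
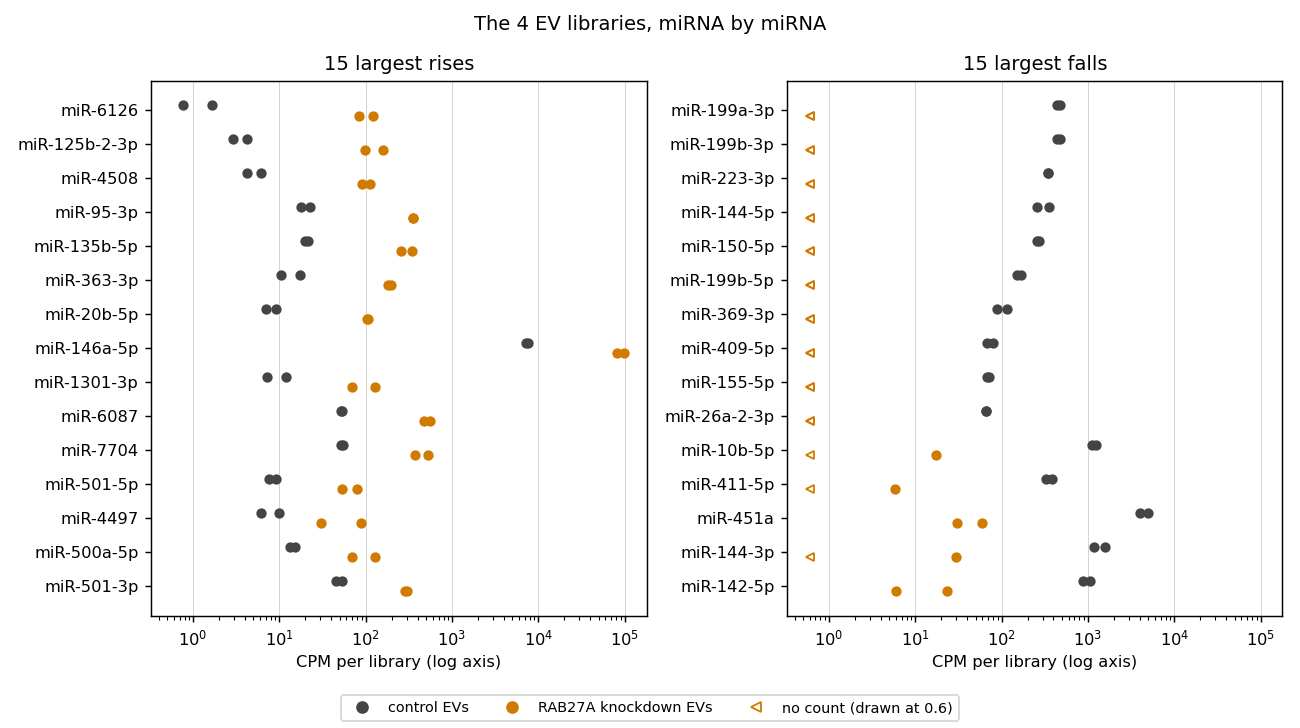
CPM (log axis) in each of the 2 control EV libraries (dark points) and 2 RAB27A knockdown EV libraries (orange points) for the 15 miRNAs with the largest rise and the 15 with the largest fall among those past 0.05 with groups that do not overlap and a mean level at or above the median; open triangles mark libraries with no count. The 10 miRNAs at the top of the right panel have no count in both knockdown libraries, and miR-146a-5p has the highest level among the rises.

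Members of 3 genomic clusters rose without exception among those tested. In the cluster of miR-532, miR-500, miR-501, miR-502, miR-660 and miR-362 within CLCN5 (chrX:50003148-50014683, GRCh38.p14), 11 of 11 tested entries of 16 in the table were higher, with a median log2 fold change of 2.23, against 18.9% higher and a median of -0.29 over all tested miRNAs. Its summed level was 487 and 497 CPM in control EVs and 2229 and 2043 CPM in knockdown EVs. miR-501-3p went from 45.7 and 53.5 CPM to 285 and 299 CPM, miR-362-5p from 114 and 111 CPM to 516 and 440 CPM, and miR-500a-3p from 81.3 and 89.0 CPM to 310 and 270 CPM. miR-501-3p and miR-502-3p share a seed and differ at 2 positions, C9U and U22A, counted from the 5′ end, so some reads may have been counted for either. The call of miR-501-5p, the other arm, was lost without knockdown EV replicate 1 (2.44 against 2.84, adjusted p = 0.107 by edgeR).

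The cluster of miR-99a, let-7c and miR-125b-2 lies in introns of the long noncoding RNA MIR99AHG on chromosome 21. All 3 of its tested entries were higher. Of these, miR-125b-2-3p passed the filter on low counts only through the knockdown EVs, so it could hardly have come out lower. miR-99a-5p, which targets MTOR, rose from 1323 and 1357 CPM to 6529 and 5564 CPM (log2 fold change 2.06, SE 0.12, adjusted p = 5.42e-08 by edgeR). let-7c-5p rose from 64.9 and 67.0 CPM to 273 and 276 CPM (1.94). miR-125b-2-3p, the passenger arm of the third hairpin, rose from 7 and 11 counts to 26 and 17 counts in libraries with far fewer counts in all, or 2.93 and 4.24 CPM to 158 and 99.8 CPM. The summed level of the cluster was 1392 and 1429 CPM in control EVs and 6966 and 5952 CPM in knockdown EVs. miR-125b-5p is left out of this cluster, since it also comes from a second gene on chromosome 11, and it fell from 10888 and 11067 CPM to 3686 and 5030 CPM.

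The cluster of miR-106a and miR-363 on the X chromosome (chrX:134169378-134170278) is a copy of the miR-17-92 cluster, whose members promote proliferation. Its 3 tested entries all rose. miR-363-3p went from 17.6 and 10.4 CPM to 182 and 200 CPM, 12.6-fold, and miR-20b-5p from 9.22 and 6.93 CPM to 103 and 106 CPM, 11.9-fold. miR-106a-5p stood at 24.7 and 23.5 CPM against 91.1 and 35.2 CPM, and its call was lost without knockdown EV replicate 1 (0.34 against 1.26, adjusted p = 0.677 by edgeR). It differs from miR-17-5p by A1C alone, at the 5′ end. On the list of the miR-17-92 cluster of chromosome 13, 5 of 11 tested entries rose and 1 fell. The share over all tested miRNAs was 18.9% higher and 27.5% lower. The mature miR-19b-3p and miR-92a-3p of that list are also made by hairpins of the X cluster, so their reads cannot be credited to chromosome 13 alone. miR-20a-5p went from 3209 and 2897 CPM to 5994 and 5623 CPM (0.81), miR-17-5p from 1521 and 1380 CPM to 2703 and 2647 CPM (0.77), and miR-19b-3p from 1077 and 958 CPM to 1956 and 2189 CPM (0.91).

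Of the miR-181 family, known in lymphocyte development, 4 of 9 tested entries rose and none fell. All 4 were the 5p arms with the seed ACAUUCA, which summed to 7997 and 7809 CPM in control EVs and 18851 and 18531 CPM in knockdown EVs. miR-181a-5p rose 2.38-fold, miR-181b-5p 1.59-fold and miR-181d-5p 4.52-fold. Of the miR-200 family, which holds epithelial cells in their state, 2 of 6 tested entries rose, among them miR-200b-3p from 79.6 and 80.1 CPM to 249 and 241 CPM, and 1 of 7 rose without any one of the control or knockdown EV libraries. Of the miR-30 family 3 of 11 rose and 1 fell. Over all tested miRNAs 18.9% were higher and 27.5% lower, so 3 of 11 is near the background. miR-30a-5p rose 2.71-fold and its other arm miR-30a-3p 1.82-fold.

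Entries on a list of annotated miRNAs that overlap other abundant RNAs rose in 6 of 18 tested cases and fell in 1, beside 18.9% higher and 27.5% lower over all tested miRNAs. miR-7704, whose hairpin lies in an exon of HOXD1 on chromosome 2, went from 54.9 and 52.4 CPM to 377 and 522 CPM, and miR-6087 from 52.8 and 52.0 CPM to 480 and 558 CPM. Both were far lower in the cells of both lines, at 0.307 and 2.70 CPM for miR-7704 and 0.524 and 8.57 CPM for miR-6087 in control and knockdown cells. miR-6126, miR-4508 and miR-4497 are not on that list and are given as members of the 15 largest rises. miR-6126 had 4 and 2 counts in control EVs against 14 and 21 in knockdown EVs, or 1.68 and 0.770 CPM against 85.0 and 123 CPM. Like miR-125b-2-3p, it passed the filter on low counts only through the knockdown EVs. The call of miR-4497 was lost without knockdown EV replicate 2 (1.56 against 2.76, adjusted p = 0.157 by edgeR). Whether such reads come from the annotated hairpin or from another RNA was not tested.

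Of 428 tested miRNAs with a sequence, 48 seeds were held by at least a pair of tested miRNAs. In 6 of these, members passed in opposite directions, in 8 at least a pair of members passed and all were higher, and in 7 all were lower. The sequences of such groups are printed above.

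In the group with the seed ACCCGUA, miR-99a-5p rose while miR-100-5p and miR-99b-5p fell. miR-99a-5p and miR-100-5p differ at a single position, U16A, and they changed by 2.06 and -1.35. The sum over the 3 members was 285640 and 300135 CPM in control EVs and 124271 and 142863 CPM in knockdown EVs, so the fall of miR-100-5p set the level of the seed. miR-99b-5p (-0.33) kept its call under 10 of its 17 alternatives.

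In the let-7 family, whose members restrain LIN28, RAS and HMGA2, let-7c-5p rose and 7 members with its seed were lower, though their direction turned in 5 cases when the trend with GC content was removed. let-7a-5p fell from 24519 and 22486 CPM to 11381 and 15426 CPM (-0.93, SE 0.14, adjusted p = 0.00014 by edgeR) and let-7f-5p from 40500 and 36458 CPM to 22125 and 26942 CPM (-0.77). With the GC trend removed let-7a-5p stood at -0.23 (adjusted p = 0.138) and let-7f-5p at 0.05 by edgeR. The others that turned were let-7d-5p, let-7g-5p, let-7i-5p and miR-98-5p. let-7c-5p differs from let-7a-5p by G19A and from let-7b-5p by A17G, and it stayed higher. The seed summed to 138519 and 129975 CPM in control EVs and 86016 and 101963 CPM in knockdown EVs. Over both arms, 11 of 18 tested let-7 entries were lower and 2 higher, beside 27.5% lower and 18.9% higher over all tested miRNAs. With the GC trend removed 3 of 17 were lower and 2 higher, beside 85 lower and 111 higher of 428, so the lower entries were then near the background.

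The seed AAAGUGC is shared by the miR-17 and miR-106 miRNAs. miR-17-5p, miR-20a-5p, miR-20b-5p and miR-106a-5p rose, while miR-93-5p stood at 5839 and 5840 CPM in control EVs and 4822 and 5142 CPM in knockdown EVs (-0.35, adjusted p = 0.0143 by edgeR). That small difference missed the threshold with total counts and turned to 0.03 with the GC trend removed. miR-93 and miR-25 lie in an intron of MCM7 on chromosome 7, and in that cluster 5 of 6 tested entries were lower and none higher, or 3 lower with the GC trend removed, which turned the sign of 2. Over all tested miRNAs 27.5% were lower, and with the GC trend removed 85 of 428. Members with the seed AUUGCAC differed as well. miR-363-3p rose 12.6-fold, while miR-25-3p fell from 1604 and 1766 CPM to 1178 and 1186 CPM, a call that was lost with the GC trend removed (-0.22, adjusted p = 0.163 by edgeR). miR-92b-3p, from a separate gene on chromosome 1, fell from 1196 and 1214 CPM to 498 and 587 CPM.

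miR-23a-3p and miR-23b-3p, which differ by U19A over their shared length, come from paralogous clusters on chromosomes 19 and 9. miR-23a-3p rose from 7848 and 7402 CPM to 17169 and 15255 CPM (0.97, SE 0.11), and miR-23b-3p fell from 6440 and 6903 CPM to 3286 and 2776 CPM (-1.25, SE 0.12), with adjusted p = 8.99e-06 and 2.07e-06 by edgeR. Their neighbours differed in a like way. miR-27b-3p fell from 31691 and 32367 CPM to 11691 and 12033 CPM (-1.55), while miR-27a-3p, with C19U between them, stood at 14487 and 15088 CPM against 18390 and 19065 CPM and did not pass (0.23, adjusted p = 0.0713 by edgeR). The other arm miR-27b-5p fell from 570 and 606 CPM to 54.7 and 112 CPM. In the last such group, UUUCAGU, miR-30a-3p rose from 558 and 556 CPM to 1105 and 1098 CPM and miR-30e-3p went from 251 and 248 CPM to 158 and 188 CPM, with G18A between them. The call of miR-30e-3p was lost without knockdown EV replicate 1 (-0.62, adjusted p = 0.0942 by edgeR), with counts thinned to the shallowest library (-0.35, adjusted p = 0.262) and with the GC trend removed (-0.15, adjusted p = 0.552). How the authors counted reads that match several of these near-identical miRNAs is not given in the sources used here, so each pair's split is uncertain to that extent.

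**Figure D3:**
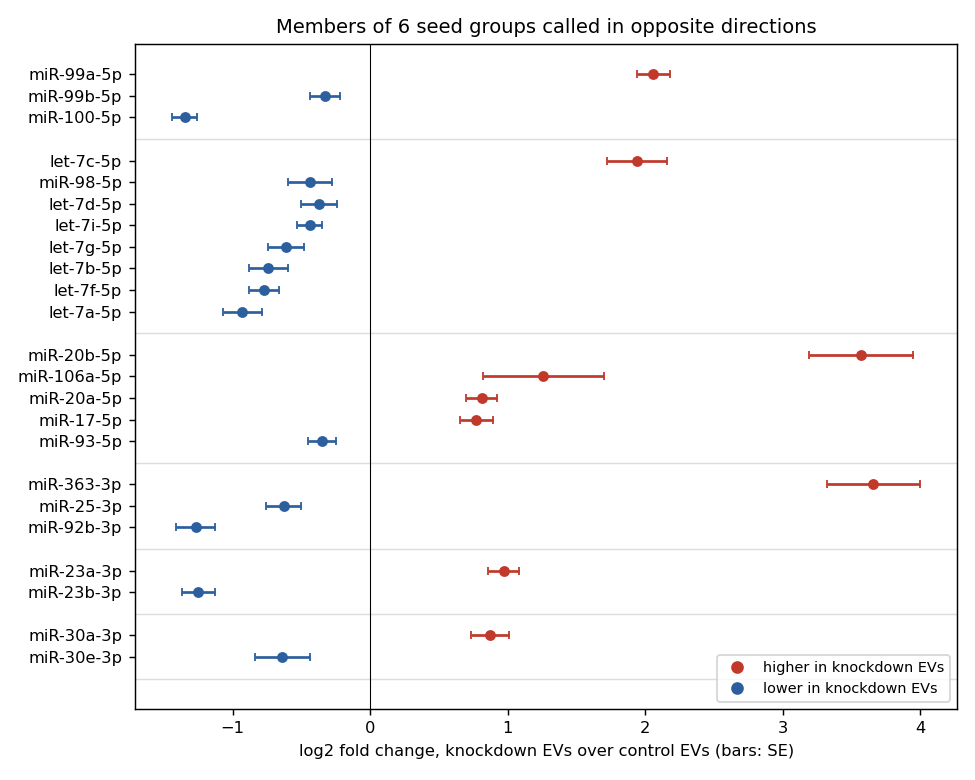
Log2 fold change of knockdown over control EVs (x axis; bars, SE) for each called member of the 6 seed groups whose members passed in opposite directions, groups separated by lines. In each group at least 1 member lies right of 0 and at least 1 left of it, miR-99a-5p at 2.06 against miR-100-5p at -1.35 among them.

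Among the miRNAs that fell were many known from blood, connective tissue and vessel walls. The lists for erythroid cells, leukocytes and platelets, stroma, endothelium and the imprinted 14q32 cluster hold 115 entries of the table, of which 54 were tested and 42 were lower. Of the 54, 37 had no count in knockdown EVs. Entries that passed the filter on low counts through the control EVs alone could only come out lower or uncalled, so these counts describe the lists and are not set against the share over all miRNAs. The 4 tested erythroid entries that fell included miR-451a, with 4992 and 3976 CPM in control EVs and 30.4 and 58.7 CPM in knockdown EVs. Its call was lost without knockdown EV replicate 2 (-7.55 against -6.76, adjusted p = 0.064 by edgeR). miR-486-5p, also erythroid, went from 2560 and 2671 CPM to 128 and 129 CPM. miR-144-3p had 3808 and 3087 counts against 0 and 5, and miR-144-5p had none in knockdown EVs and was at least 33.8-fold lower.

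All 5 tested leukocyte entries fell. miR-223-3p, a myeloid and platelet miRNA, had 822 and 888 counts in control EVs and none in the knockdown, at least 38.3-fold lower, and miR-150-5p, from lymphocytes, was at least 29.3-fold lower. miR-142-5p, made by blood lineages, went from 1048 and 874 CPM to 6.07 and 23.5 CPM. All 8 tested stroma entries fell as well. miR-143-3p of smooth muscle went from 2543 and 2674 CPM to 109 and 112 CPM, and miR-199a-3p, with counts identical to those of miR-199b-3p, from 1125 and 1133 counts to none, at least 50.6-fold lower. miR-199b-5p was at least 17.9-fold lower. Both arms of miR-126, from EGFL7 in endothelium, fell, miR-126-5p from 1603 and 1392 CPM to 48.6 and 93.9 CPM and miR-126-3p from 1363 and 1256 CPM to 182 CPM in each library.

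The 14q32 cluster is an imprinted locus expressed from the maternal allele in placenta, muscle and brain. Of its 92 entries 68 had a count in the 4 EV libraries and 34 were tested, 27 of these without a count in knockdown EVs, so the filter largely fixed their direction. 23 of the 34 were lower, with a median log2 fold change of -1.44 with bounds. With the filter on the mean level 4 of 4 were lower, but these too passed it through the control EVs, so their direction was likewise fixed. miR-127-3p had 724 and 784 counts in control EVs against 2 and 0, a 50.7-fold higher pooled share (95% exact binomial interval 14 to 419, counting error only). miR-379-5p had 642 and 712 against 2 and 1 (30.3-fold, 10.4 to 147), and miR-411-5p 778 and 998 against 0 and 1 (119-fold, 21.4 to 4718). miR-369-3p and miR-409-5p had none and were at least 11.2-fold and 8.31-fold lower.

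The summed levels of these lists set the scale. Erythroid entries summed to 9515 and 8107 CPM in control EVs and 158 and 229 CPM in knockdown EVs, leukocyte entries to 2013 and 1789 CPM against 12.2 and 35.2 CPM, and stroma entries to 3849 and 3934 CPM against 115 and 112 CPM. The endothelial pair summed to 2966 and 2648 CPM against 231 and 276 CPM, and the 14q32 entries to 1972 and 1861 CPM against 36.4 and 41.1 CPM. The exact permutation test gives 0.333 for each, the smallest two-sided p that 2 against 2 allows. Control cells held 278 and 263 CPM of the erythroid list, 10.4 and 11.5 of the leukocyte list, 20.2 and 22.1 of the stroma list, 113 and 110 of the endothelial pair, and 0.845 and 0.994 of the 14q32 list. The EVs of the miR-122 knockout line held 208 and 149, 18.9 and 9.47, 54.6 and 40.4, 136 and 130, and 18.4 and 8.53 CPM of these lists in the same order, so among the 6 EV libraries the high levels were those of the 2 control libraries. The part of RNA from serum or from other cells in these differences was not tested. A fit without the 54 tested entries, chosen after the data were seen, called 91 higher and 112 lower.

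**Figure D4:**
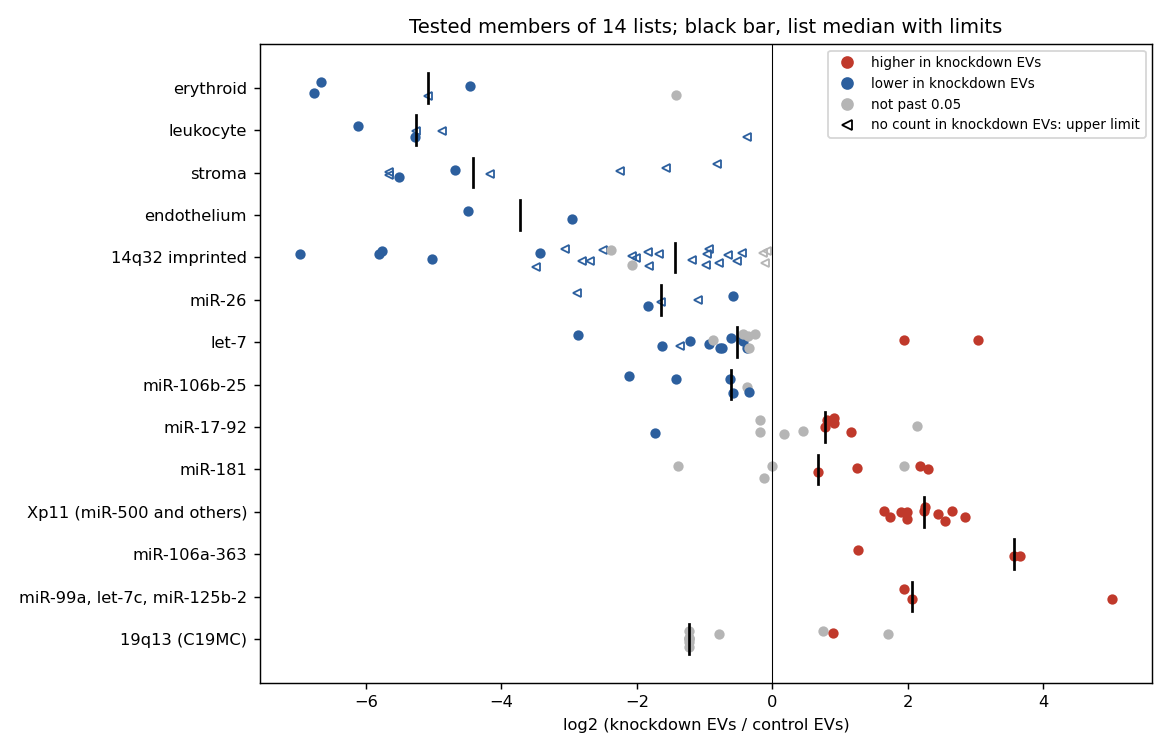
Log2 ratio of knockdown over control EVs (x axis) for the tested members of 14 lists (rows); filled points have counts in both groups, open triangles have no count in knockdown EVs and are drawn at their upper limit, members whose control level is also under the limit are not drawn, and black bars are medians with limits. The 5 lists at the top lie left of 0 and the clusters of Xp11, miR-106a-363 and miR-99a lie right of it.

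Of the 134 miRNAs that fell, 35 were near 0 in the cells. They were among 68 tested miRNAs under 1 CPM in control cells, of which 10 were higher, and 32 of the 35 belong to the 5 lists. Together the 68 summed to 10307 and 8642 CPM in control EVs and 1779 and 2037 CPM in knockdown EVs. Among the 137 miRNAs between 1 and 10 CPM in control cells, 13 were lower and 20 higher. Of the 142 between 10 and 100 CPM 33 were lower and 31 higher, and of the 80 between 100 and 1000 CPM 25 were lower and 16 higher. Among the 61 above 1000 CPM, 28 were lower and 15 higher. No count in knockdown EVs was found for 37 of the 68, 23 of the 137 and 8 of the 142. Such entries could only come out lower or uncalled, so these counts describe the ranges and are no result about them. Over all tested miRNAs 27.5% were lower and 18.9% higher.

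Outside those lists 92 miRNAs were lower. miR-10b-5p, a metastasis-associated miRNA of the HOXD locus, had 2961 and 2936 counts in control EVs and 0 and 3 in knockdown EVs, a 132-fold higher share (45.2 to 641). In control cells it stood at 10.2 CPM. Its relative miR-10a-5p of the HOXB locus is abundant in the cells, and it fell from 5234 and 5394 CPM to 1263 and 1626 CPM (-2.0, SE 0.13, adjusted p = 8.9e-08 by edgeR). miR-34a-5p, a target of p53, fell from 198 and 168 CPM to 18.2 and 11.7 CPM, 13.2-fold. miR-222-5p fell from 586 and 681 CPM to 42.5 and 93.9 CPM, 9.99-fold, whereas the main arm miR-222-3p stood at 8178 and 8962 CPM in control EVs and 8715 and 10794 CPM in knockdown EVs.

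All 5 tested entries of the miR-26 family, which targets EZH2, were lower, although miR-26a-5p turned to 0.02 with the GC trend removed. Of these 5, 3 had no count in knockdown EVs, so they could only come out lower or uncalled. For this family and those below, the share over all tested miRNAs was 27.5% lower and 18.9% higher. miR-26b-5p fell from 16473 and 14281 CPM to 3990 and 5318 CPM (-1.84), and miR-26a-5p from 42035 and 45822 CPM to 36318 and 27124 CPM (-0.58). miR-26a-2-3p had 158 and 173 counts against none, at least 7.42-fold lower. Of the miR-29 family, which targets collagens, 4 of 7 were lower and none with the GC trend removed, which turned miR-29a-3p to 0.16. miR-29b-3p stood at 886 and 738 CPM against 456 and 405 CPM (-1.03) and miR-29c-3p at 163 and 118 CPM against 36.4 and 64.6 CPM (-1.59). Of miR-125, homologues of the worm lin-4, 3 of 5 fell and 1 rose: miR-125a-5p fell from 3641 and 4033 CPM to 941 and 1479 CPM. miR-484, which is made without Drosha, fell from 737 and 831 CPM to 237 and 241 CPM, while miR-320a, made in the same way, rose from 2344 and 2282 CPM to 4027 and 4796 CPM. miR-182-5p of the miR-183 cluster fell from 2861 and 3014 CPM to 1354 and 1520 CPM.

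miR-122-5p, the hepatocyte miRNA edited in the third line, had 790 and 651 counts in control EVs, 331 and 251 CPM, and 7 and 5 counts in knockdown EVs, 42.5 and 29.4 CPM. The log2 fold change was -3.14 (SE 0.35, adjusted p = 8.61e-06 by edgeR). The knockout EVs held 1.07 and 0.947 CPM. Control cells held 0.392 CPM and knockdown cells 12.5 CPM on average, so the cells differed in the opposite direction. The other hepatocyte markers did not fall: miR-194-5p rose from 173 and 188 CPM to 516 and 370 CPM, and miR-192-5p stood at 230 and 245 CPM against 243 and 252 CPM.

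The same contrast was fitted in the cells that released the EVs. In cells, 330 of 613 tested miRNAs passed (53.8%), with 149 higher (24.3%) and 181 lower (29.5%) in knockdown cells. Of 430 tested in both, 65 were higher in EVs and cells, 68 were lower in both, 11 were lower in EVs and higher in cells, and 1 was higher in EVs and lower in cells. Log2 fold changes correlated at 0.55 (Pearson) and 0.56 (Spearman) across these 430 miRNAs, which are not independent replicates and include miRNAs with no count in a group. The rises of miR-146a-5p were of like size, 3.49 in EVs and 3.50 in cells, and those of miR-135b-5p were 3.73 and 3.87. miR-27b-3p fell by 1.55 and 1.70 on the log2 scale.

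A test of the difference between the EV and the cell contrast, on all 12 libraries, passed for 107 of 574 miRNAs (18.6%), 25 with a higher value in EVs (4.36%) and 82 with a lower one (14.3%). Scaled to total counts it passed for 60 and 54, so the split depended on the scaling. miR-100-5p fell in EVs while in cells it stood at 326016 CPM against 292716 CPM, and the difference of the contrasts was -1.42 (adjusted p = 4.88e-10 by edgeR). miR-99a-5p rose more in cells, from 367 to 7686 CPM on average (4.40), than in EVs (2.06), with a difference of -2.55. miR-363-3p rose by 7.48 in cells against 3.66 in EVs. miR-126-5p fell in EVs by 4.50 and rose in cells by 1.02, and miR-222-5p fell in EVs by 3.32 and rose in cells by 0.36. miR-15b-5p rose in EVs from 485 and 488 CPM to 1245 and 1221 CPM (1.23) and not in cells (-0.26), a difference of 1.28 (adjusted p = 1.68e-06 by edgeR). miR-365a-3p, identical in its counts to miR-365b-3p, stood at 64.1 and 59.7 CPM against 176 and 170 CPM in EVs, with a difference of 1.43 from the cells.

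**Figure D5:**
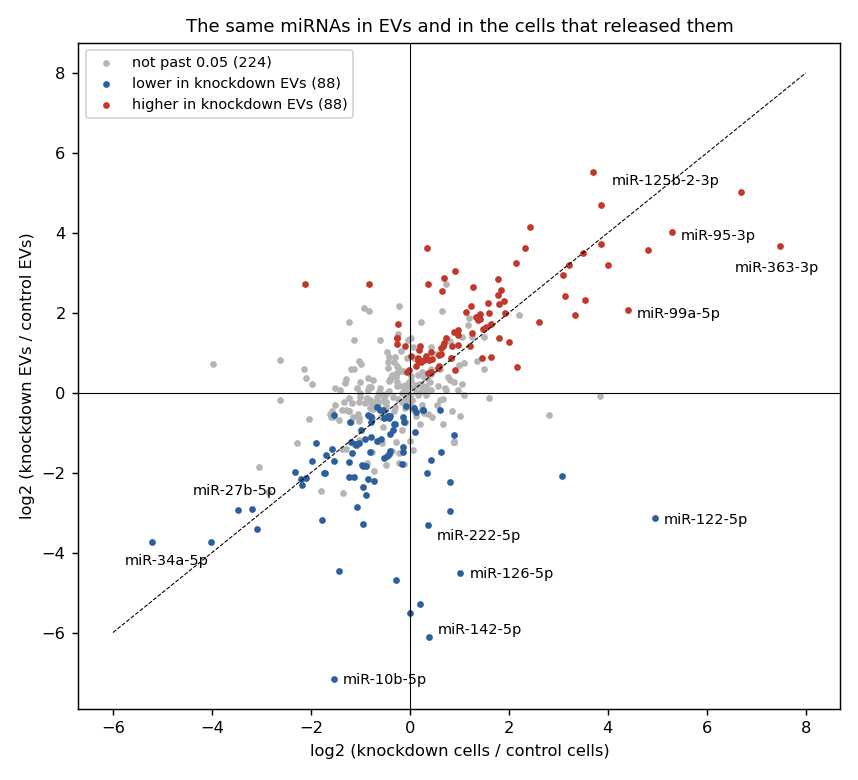
Log2 fold change in knockdown over control cells (x axis) and in knockdown over control EVs (y axis) for the 400 miRNAs tested in both fractions with a count in each of the 4 groups; colours give the EV call and the dashed line marks equal changes. miR-95-3p and miR-125b-2-3p lie at the upper right, and miR-122-5p, miR-126-5p and miR-222-5p lie right of 0 and below it.

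The knockdown EVs were also set against the EVs of the miR-122 knockout line, which do not share libraries with them. Of 488 miRNAs 197 passed (40.4%), with 86 higher (17.6%) and 111 lower (22.7%) in knockdown EVs, and with total counts 130 were higher and 71 lower, a median shift of 0.41. miR-95-3p stood at 6.66 and 5.68 CPM in knockout EVs against 352 CPM in each knockdown library, and miR-20b-5p at 1.60 and 2.21 CPM against 103 and 106 CPM. miR-363-3p had a single count in the 2 knockout libraries, and miR-125b-2-3p and miR-6126 had none. miR-34a-5p was at 183 and 212 CPM in knockout EVs, near the control EVs, and miR-27b-5p at 811 and 714 CPM. miR-26a-2-3p, without a count in knockdown EVs, stood at 76.7 and 63.5 CPM in knockout EVs. miR-335-3p, at 85.5 and 66.6 CPM against 6.07 and 17.6 CPM, and miR-93-3p, at 54.1 and 52.4 CPM against 12.1 and 5.87 CPM, were lower in knockdown EVs as well.

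Of 126 hairpins with both arms tested, 9 had both arms higher, 22 both lower, 57 a call in a single arm and 2 opposite calls. The difference between the arms was not tested, and a call in a single arm does not show one. In miR-15b the 5p arm rose and the 3p arm fell from 119 and 136 CPM to 18.2 and 35.2 CPM. In miR-340 the 5p arm rose from 104 and 91.3 CPM to 249 and 229 CPM, and the 3p arm had 53 and 78 counts against 1 and 1. The call of miR-340-3p was lost with DESeq2 (adjusted p = 0.0626) and without either knockdown EV library.

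The median GC content was 47.8% for the 80 higher miRNAs with a sequence, 45.5% for the 123 lower and 50% for the 225 not called, and the median length was 22 bases in each. Across 428 miRNAs the log2 fold change and GC content had a Spearman correlation of 0.17, a description across miRNAs that share libraries. Of 99 miRNAs under 40% GC 37 were lower, and of 73 at 60% or more 10 were lower. The last base was A in 30% of the higher and 17.1% of the lower miRNAs and U in 27.5% and 42.3%, and the first base was A in 33.8% and 22%. These shares were not tested. The letters GGAG, which bind the sorting protein hnRNPA2B1, stood in 7 of the 80 higher (8.75%), 6 of the 123 lower (4.88%) and 32 of the 428 tested (7.48%), and in 359 of 2281 table entries with a sequence (15.7%). The letters GGCU, bound by SYNCRIP, stood in 11 of 80 (13.8%), 12 of 123 (9.76%) and 49 of 428 (11.4%), and in 12.4% of the 2281. Mature miRNAs were searched on their own strand alone, and a match is no evidence of binding.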

How the data were processed

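Small RNA libraries of EVs and cells were analysed from a table of deposited counts, whole numbers of reads per mature miRNA that were not normalized. Per the labels' protocols, RNA was extracted with TRIZOL LS from EVs, ligated by a method that needs a 5′ monophosphate, and sequenced on a Genome Analyzer IIx. The submitters' processing notes name cutadapt, Bowtie and the build hg19, without versions or settings. Which miRNA annotation was used and how reads matching several miRNAs were counted is not given in the sources used here.

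The 6 EV libraries were fitted together with edgeR 4.0.16 and limma 3.58.1 in R 4.3.3, using TMM factors, filterByExpr with a minimum count of 10, a robust quasi-likelihood test and Benjamini-Hochberg adjustment at 0.05 over all miRNAs tested. That minimum is turned into a CPM level at the median library depth, so the shallow knockdown EV libraries reach it with fewer counts. Cells were fitted on the 6 cell libraries, and the difference of the EV and cell contrasts on all 12. CPM values are counts over the library total. The SE is the size of the log2 fold change over the root of the test's F value. Bounds use 3 counts over a group's summed total. Without molecular identifiers, intervals and limits cover counting error only. Scripts were tested on simulated data. Among the 488 tested miRNAs, 17 entries fell into 6 groups with identical counts, counted separately.

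The members, the 32 lists and the tests were chosen with earlier results of these data known. Named miRNAs are the 15 largest changes per direction among called miRNAs whose groups do not overlap and whose mean CPM is at or above the median, the 10 most abundant per group, up to 4 of each list, the 5 largest per direction of the other contrasts, the arms of miR-122 and the members of opposite seed groups. Of these the text names a part, and names outside the rule were chosen after their values were seen. Alternatives were other scalings and filters, DESeq2 1.42.0, the replicate number as a block, each library left out, the 4 EV libraries alone, thinned counts, identical entries once and a GC offset. The GC offset was the fitted trend without centring, so it rescaled each library as well. Whether replicate numbers pair the libraries is not said. Deviations of same-numbered control and knockdown EV libraries correlated at -0.07. This cannot settle the question, since each group holds 2 libraries and those of the knockdown are shallow.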

Additional observations from a re-analysis of the deposited data

Results flagged for a closer look

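Of the 107 miRNAs whose difference between knockdown and control was itself found to differ between EVs and cells, 21 that were named are given here, by the test of the EV contrast minus the cell contrast on all 12 libraries (edgeR, adjusted p under 0.05 over 574 miRNAs). Values below are that difference on the log2 scale.

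It was negative, with the lower value in EVs, for the hepatocyte miR-122-5p (-8.26), for both arms of the endothelial miR-126 (-5.73 for miR-126-5p and -3.97 for miR-126-3p), for miR-222-5p (-3.89), and for miR-142-5p (-6.72), miR-143-3p (-4.61) and miR-486-5p (-3.23) of blood and smooth muscle. It was negative as well for miRNAs that rose more in cells than in EVs, miR-363-3p (-4.01) and miR-99a-5p (-2.55), and for miR-100-5p (-1.42), which fell in EVs.

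For miR-199a-3p and miR-199b-3p (-13.39 each, identical counts), miR-155-5p (-16.28), miR-409-5p (-14.21) and miR-26a-2-3p (-9.25) the fitted value rests on zeros in knockdown EVs, depends on the prior count and is no bound. Of these, miR-409-5p and miR-155-5p were also under 1 CPM in the cells of both lines. The call of miR-26a-2-3p was lost without either knockdown EV library, and that of miR-409-5p without knockdown cell replicate 1.

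It was positive for miR-15b-5p (1.28), miR-34c-5p (1.35), miR-365a-3p and miR-365b-3p (1.43 each, identical counts) and miR-21-5p (0.50). miR-34c-5p stood at 631 and 593 CPM in control EVs and 808 and 763 CPM in knockdown EVs, while in cells its mean was 1303 CPM in control and 519 CPM in knockdown. miR-4521 (2.27) had 17 and 10 counts in control EVs against 3 and 2 in knockdown EVs, and 340 CPM against 153 CPM in cells. The calls of miR-21-5p and miR-4521 were lost in most fits with a library left out.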

How the results depend on the processing

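Of 102 miRNAs named for knockdown against control EVs, 100 passed, and 76 kept direction and side of the threshold under every alternative that could be run for them, 19 lost a call at least once and 10 turned. The count of 226 became 145 (77 lower) with miRNAs under a mean of 60.7 CPM left out and 147 (75 lower) with all libraries thinned to the shallowest. It became 251 of 1388 with no filter, 226 with DESeq2 and 211 with the replicate block, and 85 were lower with the GC offset. Leaving out each library gave 167 to 236 calls, 64 to 90 higher and 103 to 146 lower. The lowest count came without knockdown EV replicate 1, where the lone library is assumed to vary like the others. The replicate block took the calls of miR-98-5p, miR-99b-5p, let-7d-5p, miR-106a-5p and others named at adjusted p near the threshold. Whether same-numbered libraries share more than a number is not said.

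With the GC offset the sign turned for miR-26a-5p (0.02), let-7f-5p (0.05), let-7g-5p (0.09), let-7i-5p (0.16), let-7d-5p (0.23), miR-98-5p (0.37), miR-29a-3p (0.16) and miR-93-5p (0.03). With no filter it turned for miR-221-3p (-0.08) and miR-27a-3p (-0.08), and for miR-27a-3p without knockdown EV replicate 2 (-0.03, with 0.22 as the highest value with a library left out). The summed miR-15 and miR-16 list turned with TMM-scaled CPM (log2 ratio -0.00438). The GC offset also rescaled each library, with a median log2 fold change of 0.08 against -0.29 in the main fit. The cause was not tested in these cases.

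Against knockout EVs, total counts gave 130 higher and 71 lower, the filter on the mean level 128 calls with 68 lower, and libraries left out 145 to 191 calls, 62 to 84 higher and 83 to 114 lower. For the EV contrast minus the cell contrast, total counts gave 60 higher and 54 lower, no filter 46 lower, the mean filter 38 higher and DESeq2 45 higher; libraries left out gave 78 to 117 calls, 11 to 34 higher and 66 to 96 lower. In cells, libraries left out gave 196 to 385 calls, the lowest without knockdown cell replicates 1 (196) and 2 (218).

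Depth limits the knockdown EVs: 188 of the 488 miRNAs rested on 1 to 9 summed counts there and 68 on none.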

Other observations

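Some miRNA groups not described above moved in knockdown EVs; they were picked after their values were seen. miR-103a-3p, which regulates lipid and insulin signalling through CAV1, rose from 2694 and 2647 CPM to 5466 and 4895 CPM (log2 fold change 0.84, adjusted p = 7.51e-05 by edgeR). Its relative miR-107 stood at 67.0 and 52.0 CPM against 103 and 123 CPM (adjusted p = 0.0324 by edgeR), a call that was lost without either knockdown EV library. miR-378a-3p, from an intron of PPARGC1B, rose from 1172 and 1241 CPM to 3784 and 2976 CPM (1.37). miR-148a-3p rose from 4290 and 4821 CPM to 8831 and 6345 CPM, and in knockout EVs it stood at 668 and 690 CPM. Its call was lost with no filter (0.32), without either control EV library (0.39 and 0.60) and without knockdown EV replicate 1 (0.27, adjusted p = 0.106 by edgeR). miR-24-3p rose from 13982 and 13492 CPM to 20169 and 22798 CPM (0.53), and missed the threshold without knockdown EV replicate 2 (0.21, adjusted p = 0.171 by edgeR).

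miR-342-3p, an intronic miRNA of EVL, fell in EVs from 419 and 455 CPM to 97.2 and 135 CPM (-2.02) and rose in cells (0.35). miR-27a-5p, the passenger arm of miR-27a, fell in EVs from 654 and 771 CPM to 243 and 305 CPM (-1.49) and rose in cells (0.62). The miRNA that was higher in EVs and lower in cells was miR-219a-1-3p. It rests on 5 and 3 counts in control EVs against 1 and 3 in knockdown EVs and lost its call in 8 alternatives. With so few counts in control EVs, it could hardly have been called lower in knockdown EVs.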
